A study of Homo sapiens with 9 samples.

Results

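The RNA of 10 genes that mark the state of a melanoma cell was followed in A375R cells, a human melanoma line that grows in the presence of a BRAF kinase inhibitor: the lineage factors MITF, SOX10 and SOX9, the pigment genes PMEL, MLANA, TYR and DCT, and the receptors AXL, NGFR and EGFR. They were chosen by name for their known roles in the melanocyte lineage, in pigment synthesis and in melanoma that has lost its lineage state. Earlier results of these data were known at that choice, so counts of calls among them describe these genes and are no test. All 10 were found among the 62710 genes of the deposited table. The cells were treated for 2 h with 10 µM R4VPL3-1, 10 µM VHL-r or the vehicle DMSO, in 3 libraries each, 9 in all. R4VPL3-1 is a PROTAC-like molecule that joins a binder of the ubiquitin ligase RNF4 through a linker to a recruiter of the ligase VHL. VHL-r is the VHL-recruiting moiety alone, without the RNF4 binder. In their titles the controls are wild type and carry no dose or time. The column headers of control replicates 2 and 3 give 2 h, and that of replicate 1 gives no time. DMSO is their vehicle by the design text and the methods, and they are called DMSO here. By the methods, A375R cells of every group were cultured with 2 µM PLX4032, a vemurafenib analog, so no group shows these genes without the kinase inhibitor. All libraries came from 1 cell line, and the p-values measure the spread between repeats of that line.

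SOX10 and MITF hold melanocytes and most melanomas in the pigment cell lineage: SOX10 activates MITF, and MITF activates the genes of the melanosome and of melanin synthesis. Melanoma cells can leave this state towards a neural crest-like state, known for NGFR, or a dedifferentiated state, known for AXL, EGFR and SOX9 with little MITF and SOX10. Both states are known from melanomas that resist inhibitors of BRAF and MEK.

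Between 26435568 and 32085626 reads per library lay behind the values, with a median of 28165279, as recovered from the deposited normalized counts (reads divided by the size factor of each library). Genes with a mean of at least 10 normalized counts over the 9 libraries, 15230 in all, were tested with limma on log2(normalized count + 1), and a gene was called where its p, adjusted by Benjamini-Hochberg over all of them, was 0.05 or less. The added 1 makes fold changes of low genes too small. For 1 gene alone the smallest p of an exact permutation test on 3 and 3 libraries is 0.1, and the fit over all genes was used instead. MITF, SOX10, SOX9, AXL, NGFR, EGFR, PMEL and DCT passed the filter, whereas TYR and MLANA did not.

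After R4VPL3-1, SOX10, MITF, NGFR and AXL were lower and EGFR was higher than in DMSO, which makes 5 of the 8 tested genes called, 4 lower and 1 higher. Over all tested genes of that comparison 24.9% were called, 11.8% lower and 13.1% higher. After VHL-r, SOX10, MITF and AXL were lower than in DMSO and none was called higher, where 19.8% of all tested genes were called, 9.51% lower and 10.3% higher. Between the compounds SOX10 alone of the 8 was called, lower after R4VPL3-1, where 1.87% of all tested genes were called, 0.729% lower and 1.14% higher. The median log2 fold change of the 8 genes was -0.17 for R4VPL3-1 and -0.096 for VHL-r against DMSO, and -0.078 between the compounds, beside -0.0063, -0.0045 and -0.0056 over all tested genes. Both comparisons with DMSO share the same 3 DMSO libraries.

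**Figure D1:**
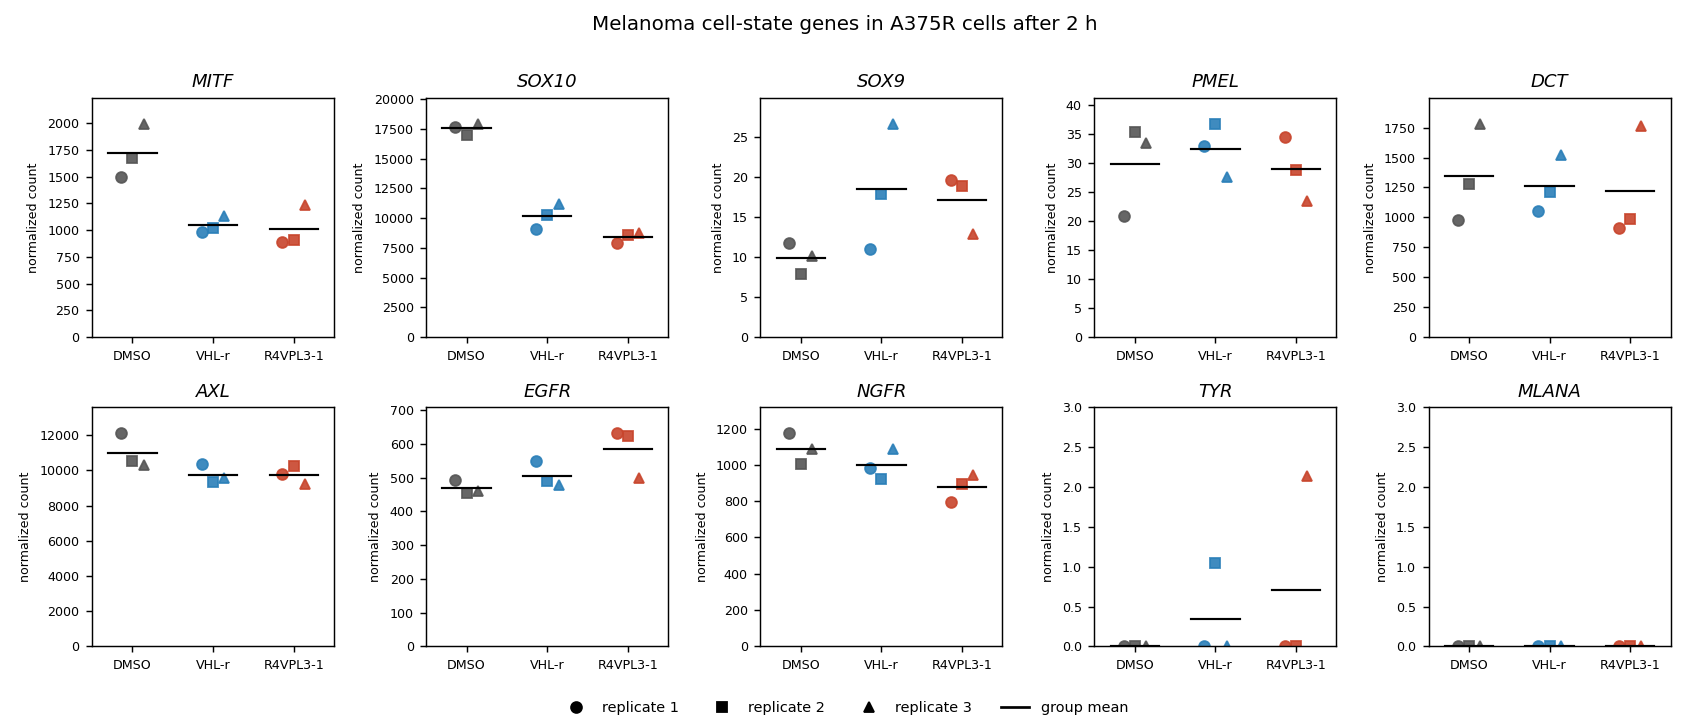
Normalized counts, on linear axes from 0, of the 10 genes in each of the 9 libraries, with symbols for the replicate number and a line for the group mean. SOX10 and MITF lay below every DMSO library after either compound, and DCT lay highest in replicate 3 and lowest in replicate 1 of each treatment.

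Of the lineage factors, SOX10, an HMG-box transcription factor of the neural crest and melanocytes (ENSG00000100146, GRCh38 chromosome 22, 37970686 to 37987422, minus strand), changed the most. Its normalized counts were 17699, 17007 and 17935 in DMSO, 9133, 10250 and 11216 after VHL-r, and 7900, 8562 and 8752 after R4VPL3-1. The 3 groups did not overlap, with DMSO highest and R4VPL3-1 lowest.

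SOX10 fell by 52.1% after R4VPL3-1 against DMSO, a log2 fold change of -1.06 ± 0.06 (SE; 95% interval -1.18 to -0.94; limma adjusted p = 1.56e-11). After VHL-r its log2 fold change was -0.79 ± 0.06 (SE; limma adjusted p = 3.14e-09). Only 180 of the 15230 tested genes had a lower log2 fold change than SOX10 after R4VPL3-1, and 315 after VHL-r. Between the compounds SOX10 fell by 17.4% in R4VPL3-1 relative to VHL-r, a log2 fold change of -0.28 ± 0.06 (SE; 95% interval -0.40 to -0.15; limma adjusted p = 0.00951). This call was lost without VHL-r replicate 2, VHL-r replicate 3 or R4VPL3-1 replicate 1, where the adjusted p was 0.0691, 0.0758 and 0.0800. Set side by side by number, R4VPL3-1 was lower than VHL-r in 3 of 3, by log2 differences of -0.21, -0.26 and -0.36.

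MITF, the basic helix-loop-helix factor of the pigment cell programme (ENSG00000187098, chromosome 3, 69739456 to 69968336, plus strand), fell after both compounds. Its normalized counts were 1497, 1675.5 and 1994 in DMSO, 983, 1022 and 1136 after VHL-r, and 893, 906 and 1235.5 after R4VPL3-1. Every library of either compound lay below the lowest DMSO library, while the VHL-r and R4VPL3-1 libraries overlapped.

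The log2 fold change of MITF was -0.77 ± 0.10 after R4VPL3-1 (SE; 95% interval -0.99 to -0.55; limma adjusted p = 9.87e-06), a fall by 41.5%. After VHL-r it was -0.71 ± 0.10 (SE; limma adjusted p = 4.02e-05). MITF stood lower on the list of fold changes than all but 362 tested genes after R4VPL3-1 and all but 394 after VHL-r. Between the compounds its log2 difference was -0.06, with a 95% interval from -0.28 to 0.16 (limma adjusted p = 0.93). With 3 libraries each, a difference within that interval is not excluded.

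SOX9, a SOX factor of the neural crest and cartilage that is known from dedifferentiated melanoma (ENSG00000125398, chromosome 17, 72121020 to 72126416, plus strand), was near the limit of detection. It had 11.8, 7.87 and 10.1 normalized counts in DMSO, 11.01, 17.9 and 26.6 after VHL-r, and 19.6, 18.9 and 12.9 after R4VPL3-1. The R4VPL3-1 libraries all lay above DMSO, and VHL-r replicate 1 lay within the DMSO range. The log2 fold changes of 0.72 for R4VPL3-1 and 0.77 for VHL-r against DMSO did not pass (limma adjusted p = 0.142 and 0.137), and that between the compounds was -0.05, with an interval from -0.77 to 0.68. Counting error alone gives a coefficient of variation of 31.1% in DMSO, 23.6% after VHL-r and 24.0% after R4VPL3-1 at this level. Without VHL-r replicate 1 the rise after VHL-r reached 1.08 and was called (limma adjusted p = 0.0487).

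**Figure D2:**
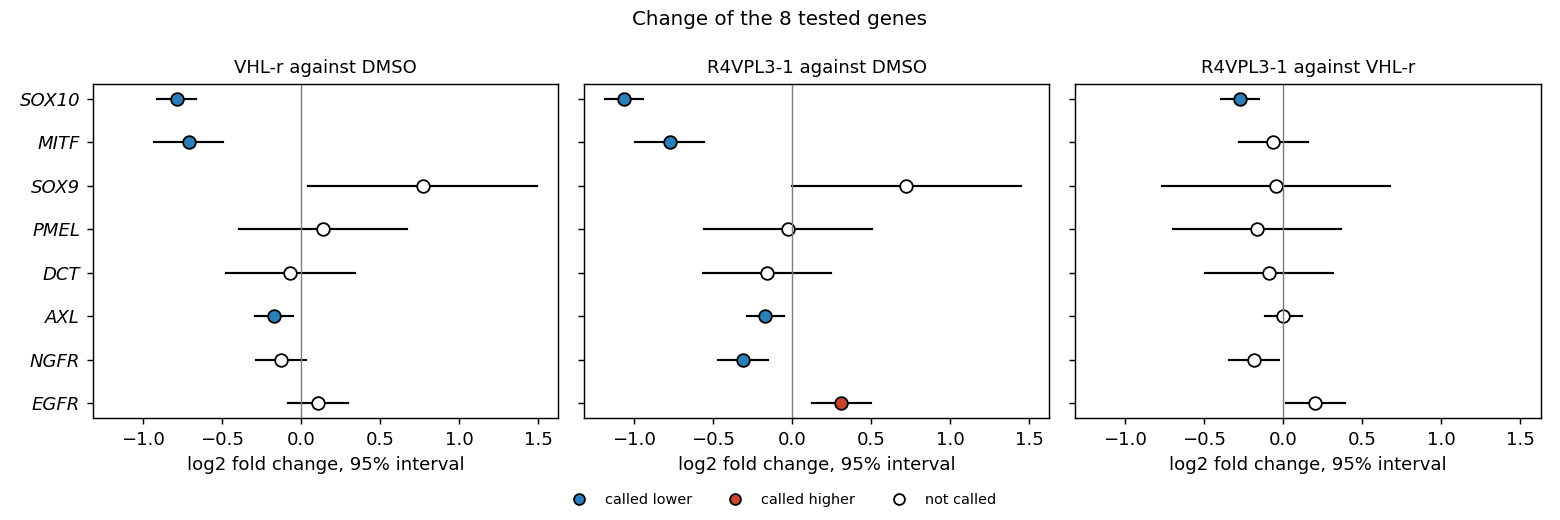
Log2 fold change of the 8 tested genes, with the 95% interval of the limma fit as a line, for VHL-r against DMSO, R4VPL3-1 against DMSO and R4VPL3-1 against VHL-r (filled points are called at an adjusted p of at most 0.05). SOX10 and MITF lie farthest below 0 in both comparisons with DMSO, and SOX10 is the only filled point between the compounds.

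Among the pigment genes, DCT (dopachrome tautomerase, an enzyme of melanin synthesis) was well expressed, PMEL (the protein of melanosome fibrils) was low, and TYR (tyrosinase, the first enzyme of melanin synthesis) and MLANA (melan-A, a melanosomal antigen) were at or next to 0. The sequence before the start of TYR, DCT and the melanocyte-type transcript of MITF is shown because MITF is known to bind the letters CATGTG, the core of the M-box, before pigment genes. The RefSeq promoter table (GRCh38.p14) held 11 entries for 6 of the 10 genes: MITF, AXL, EGFR, MLANA, TYR and DCT. The 250 bases before the start are written 5′ to 3′ on the strand of the gene, with CATGTG on either strand (CACATG when read from the other strand) in capitals. They come from chr11:89177625-89177874 (plus strand) for TYR, chr13:94479683-94479932 (minus strand) for DCT and chr3:69936342-69936591 (plus strand) for the most downstream MITF entry.
TYR: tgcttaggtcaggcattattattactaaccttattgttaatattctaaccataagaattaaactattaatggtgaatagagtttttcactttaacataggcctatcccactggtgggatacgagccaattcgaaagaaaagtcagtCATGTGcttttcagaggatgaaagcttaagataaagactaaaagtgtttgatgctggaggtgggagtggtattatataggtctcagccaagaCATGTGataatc
DCT: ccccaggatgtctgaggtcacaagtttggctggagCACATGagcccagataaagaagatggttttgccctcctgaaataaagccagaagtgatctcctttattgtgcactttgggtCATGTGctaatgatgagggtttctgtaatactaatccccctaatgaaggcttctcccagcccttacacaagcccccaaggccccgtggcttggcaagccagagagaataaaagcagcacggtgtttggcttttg
MITF: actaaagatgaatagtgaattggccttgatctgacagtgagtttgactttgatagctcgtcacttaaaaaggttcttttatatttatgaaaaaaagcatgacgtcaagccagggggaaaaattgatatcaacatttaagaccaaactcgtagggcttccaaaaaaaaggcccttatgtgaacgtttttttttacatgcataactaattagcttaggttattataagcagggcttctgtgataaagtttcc

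TYR and DCT both held CATGTG at 2 places, starting 104 and 12 bases before the TYR start and 215 and 134 bases before the DCT start. The MITF sequence shown held none, and neither did that of MLANA. In the table's windows, which run from 250 bases before to 50 bases after a start, CATGTG occurred on either strand in 4 of the 11 entries of these genes and in 11.1% of all 35116 entries. The related E-box CACGTG, the AP-1 letters TGANTCA, the TEAD letters GGAATG and the SOX-type letters ACAAAG were searched in the same way and occurred in 7.26%, 7.71%, 14.0% and 16.1% of all entries. CACGTG was in none of the 11, TGANTCA in 1, GGAATG in 4 and ACAAAG in 2. In the second EGFR entry a TGANTCA match overlaps the CATGTG match. The letters describe the sequence only: TYR and DCT share CATGTG, yet their levels stood far apart in these cells.

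TYR (ENSG00000077498, chromosome 11, 89177875 to 89295759, plus strand) had 1 read in VHL-r replicate 2 and 2 reads in R4VPL3-1 replicate 3, and 0 in the other libraries, among them the 3 of DMSO. MLANA (ENSG00000120215, chromosome 9, 5890889 to 5910606, plus strand) was at 0 in all 9. A count of 0 allows up to 3 reads, which is 2.72 to 3.21 normalized counts depending on the library, and covers counting error only. No fold is given for either gene, since every library was at or under that limit.

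DCT (ENSG00000080166, chromosome 13, 94436811 to 94479682, minus strand) had 976, 1282 and 1782 normalized counts in DMSO, 1051, 1211 and 1521 after VHL-r, and 914, 991 and 1764 after R4VPL3-1. The 3 groups overlapped almost fully. Its log2 fold change was -0.16 after R4VPL3-1 (95% interval -0.57 to 0.25; limma adjusted p = 0.61) and -0.07 after VHL-r (limma adjusted p = 0.862). Between the compounds it was -0.09, with an interval from -0.50 to 0.31. Without R4VPL3-1 replicate 3 the difference from DMSO was -0.46 and was called (limma adjusted p = 0.0445), and without DMSO replicate 3 it was 0.06.

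PMEL (ENSG00000185664, chromosome 12, 55954105 to 55973317, minus strand) had 20.9, 35.4 and 33.5 normalized counts in DMSO, 33.0, 36.8 and 27.7 after VHL-r, and 34.6, 28.9 and 23.6 after R4VPL3-1. The groups overlapped, and the lowest value of all was DMSO replicate 1. The log2 fold changes were -0.03 for R4VPL3-1 and 0.14 for VHL-r against DMSO (limma adjusted p = 0.96 and 0.772), and -0.17 between the compounds, with an interval from -0.70 to 0.36.

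TYRP1, a further enzyme of melanin synthesis, was not tested for its low level, and 36 of its 60 reads lay in R4VPL3-1 replicate 1, at 33.6 normalized counts. In the other 8 libraries it lay between 1.07 and 6.3.

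Of the receptors, AXL, a receptor tyrosine kinase of the TAM family that binds GAS6 (ENSG00000167601, chromosome 19, 41219223 to 41261766, plus strand), was slightly lower after both compounds. Its normalized counts were 12114, 10542 and 10321 in DMSO, 10334, 9335 and 9584 after VHL-r, and 9781, 10228 and 9240 after R4VPL3-1. All R4VPL3-1 libraries lay below DMSO, but VHL-r replicate 1 exceeded DMSO replicate 3. The log2 fold change was -0.17 in both comparisons with DMSO (limma adjusted p = 0.0307 for R4VPL3-1 and 0.0374 for VHL-r). Both calls were lost without DMSO replicate 1, the highest library, where the change was -0.099 and the adjusted p 0.212 and 0.241. That for R4VPL3-1 was also lost without its replicate 1 or 3 (adjusted p = 0.0619 and 0.118), and that for VHL-r without its replicate 2 or 3 (0.181 and 0.0933). Between the compounds the log2 difference was -0.00013, with a 95% interval from -0.12 to 0.12, and it turned to 0.0056 with TMM scaling.

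NGFR, the low-affinity neurotrophin receptor and a marker of neural crest cells (ENSG00000064300, chromosome 17, 49495293 to 49515008, plus strand), had 1175, 1005 and 1085 normalized counts in DMSO, 981, 924 and 1090 after VHL-r, and 797, 893 and 942 after R4VPL3-1. All 3 R4VPL3-1 libraries lay below the lowest DMSO library, whereas the VHL-r libraries overlapped with both. NGFR fell after R4VPL3-1, with a log2 fold change of -0.31 ± 0.08 (SE; 95% interval -0.47 to -0.15; limma adjusted p = 0.00447). After VHL-r the value was -0.12 and not called (limma adjusted p = 0.296). The difference between the compounds, -0.19 (95% interval -0.35 to -0.03), did not pass over all tested genes (limma adjusted p = 0.376).

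EGFR, the receptor tyrosine kinase of EGF-family ligands (ENSG00000146648, chromosome 7, 55019017 to 55211628, plus strand), went the other way. It had 493, 454 and 460 normalized counts in DMSO, 549, 490 and 479 after VHL-r, and 632, 625 and 498 after R4VPL3-1. The R4VPL3-1 libraries lay above DMSO, replicate 3 only just, and the VHL-r libraries lay between and overlapped with both. EGFR rose after R4VPL3-1, with a log2 fold change of 0.31 ± 0.09 (SE; 95% interval 0.12 to 0.50; limma adjusted p = 0.0145). The call was lost without DMSO replicate 2, R4VPL3-1 replicate 1 or R4VPL3-1 replicate 2, at an adjusted p of 0.0595, 0.0849 and 0.0819. After VHL-r the value was 0.11 (limma adjusted p = 0.47), and the difference between the compounds, 0.20 (95% interval 0.01 to 0.39), did not pass (limma adjusted p = 0.442).

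R4VPL3-1 and VHL-r differ by the RNF4-binding part and the linker and were used at the same dose and time. Between them 8 genes were thus compared, with p-values adjusted over all 15230. A p that misses the threshold does not show that the compounds act alike on MITF, SOX9, AXL, NGFR, EGFR, PMEL or DCT. The intervals were narrow for AXL and wide for SOX9, PMEL and DCT.

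To compare the genes with each other, normalized counts were divided by the length of their merged exons. That length holds every annotated exon, whether used in these cells or not: 15.9 kb for EGFR, 7.42 for MITF and 4.14 for NGFR. The order and the folds below depend on it. MITF had more normalized counts than NGFR in DMSO, with means of 1722 and 1088, but stood below it per kb. In DMSO, SOX10 stood highest at 3636 ± 99.9 per kb (SD, n = 3), followed by AXL at 2141 ± 190, NGFR at 263 ± 20.6, MITF at 232 ± 33.9, DCT at 179 ± 53.9, EGFR at 29.4 ± 1.33, PMEL at 8.15 ± 2.15 and SOX9 at 2.53 ± 0.50, with TYR and MLANA at 0. Neighbours in this order did not overlap between libraries, except NGFR with MITF and MITF with DCT. SOX10 exceeded 98.3% and AXL 96.8% of the tested genes on this scale, whereas PMEL exceeded 13.1% and SOX9 3.36%. The cells thus had high RNA of both a lineage factor, SOX10, and of AXL, known from the opposite state. SOX10 was 1.70-fold above AXL in DMSO per kb, and after R4VPL3-1 the means were 1742 per kb for SOX10 and 1899 for AXL, with overlapping libraries. NGFR was 8.15-fold below AXL, and EGFR 6.07-fold below DCT. In bulk RNA, fewer cells of a kind and less RNA per cell cannot be told apart, so a mixture of cells is not separable from cells that carry both.

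**Figure D3:**
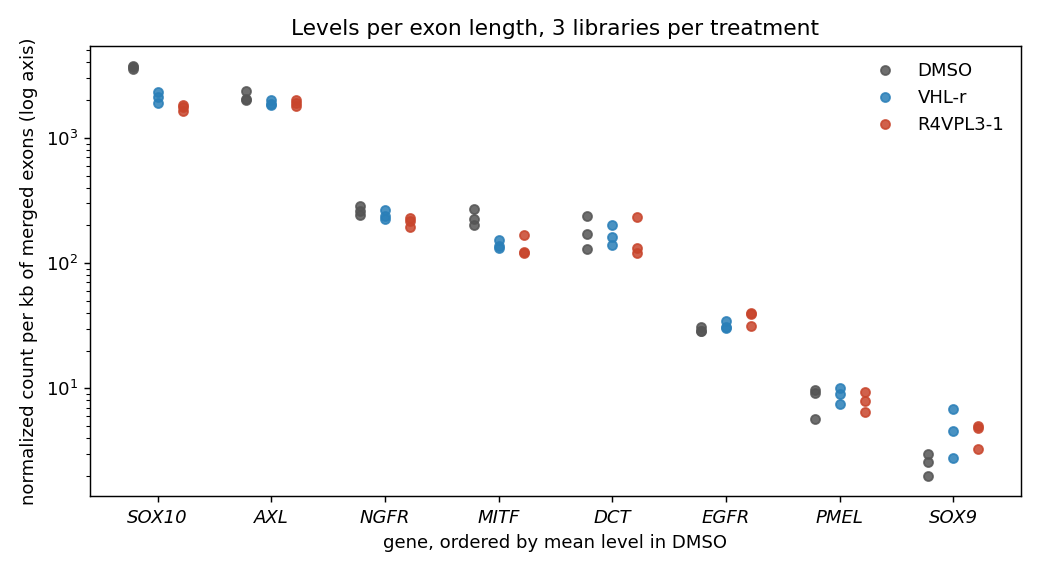
Normalized count per kb of merged exons on a log axis for the 8 tested genes, with 3 libraries per treatment; TYR and MLANA are not drawn. In DMSO the means run from 3636 per kb for SOX10 down to 2.53 for SOX9, with NGFR, MITF and DCT close together in the middle.

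DCT and MITF shared a pattern that the treatments did not set. Both were highest in replicate 3 and lowest in replicate 1 of each of the 3 groups. The order was not particular to them: genes of the lists below had it too, among them TFAP2B, ERBB3, S100B and GPNMB. The highest DCT library exceeded the lowest 1.83-fold in DMSO, 1.45-fold after VHL-r and 1.93-fold after R4VPL3-1, and the coefficient of variation was 30.2%, 19.0% and 38.4%, where counting error gives 2.69% to 2.88%. The residual SD of DCT on the log2 scale, 0.42, was larger than that of 99.96% of the 2766 tested genes within 1.5-fold of its mean level, and that of MITF, 0.20, larger than that of 99.1% of 2791. SOX10 had the same order after both compounds but not in DMSO, where replicate 2 was lowest. Over all genes, deviations of libraries of the same number correlated weakly, at -0.0056 to 0.12. Those of libraries of different numbers correlated at -0.15 to 0.098. What replicate 3 has in common was not tested. Without replicate 3 of every group, an alternative chosen after this pattern was seen, MITF stayed called after both compounds.

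The genes whose pattern over the 9 libraries was most like that of a called gene were found by the root mean square difference of log2 values, each centred on its own mean. For SOX10 they were WNT5A at 0.08, CIITA at 0.08 and FRMD4A at 0.09, all called lower after both compounds. The match used the same 9 libraries, treatment differences included. A gene with the pattern of SOX10 thus falls by the way it was picked, and these calls are no separate support. WNT5A, a Wnt ligand known from invasive melanoma, had log2 fold changes of -0.96 after R4VPL3-1 and -0.73 after VHL-r (limma adjusted p = 7.22e-10 and 7.11e-08). For MITF they were FGD4 at 0.08, PRECSIT at 0.10 and ANKRD30A at 0.11. For AXL they were ACTN1, PPRC1 and MYO10, at 0.04 each, and for NGFR CA5B and ZNF516 at 0.06 and NDST1 at 0.07. For EGFR they were a gene without a symbol (ENSG00000241962) at 0.04, and CREBBP and SCN8A at 0.06.

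Further genes of the same states were read from lists, which were also chosen with earlier results of these data known. Their counts of calls beside all tested genes are thus a description and no test. Of 23 genes of the pigment and MITF programme, 15 were tested, and 3 fell and none rose after either compound, with a median log2 fold change of -0.11 after R4VPL3-1 and -0.12 after VHL-r. These 3 of 15, all lower, stand beside 11.8% and 9.51% called lower over all tested genes after R4VPL3-1 and VHL-r. In either direction 24.9% and 19.8% of all tested genes were called. BCL2A1, an anti-apoptotic BCL2 relative, fell after R4VPL3-1, with 121, 142 and 161 normalized counts in DMSO against 75.6, 91.5 and 97.4 (log2 fold change of -0.67, limma adjusted p = 0.00209). TBX2, a T-box repressor, fell after both compounds, with log2 fold changes of -0.51 for R4VPL3-1 and -0.33 for VHL-r. RAB38, a GTPase of melanosome transport, had log2 fold changes of -0.34 and -0.22. Its call after VHL-r (limma adjusted p = 0.0478) was lost under 10 of 22 alternatives, among them TMM scaling (0.0515), DESeq2 (0.0559) and leaving out DMSO replicate 2 (0.207). PPARGC1A, a coactivator of mitochondrial genes, was called after VHL-r (-1.08, limma adjusted p = 0.00767) and not after R4VPL3-1 (-0.69, limma adjusted p = 0.0773); the difference between them, 0.39 with an interval from -0.19 to 0.97, was not called.

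Among 18 neural crest factors and markers, 17 were tested. After R4VPL3-1 7 fell and 2 rose, beside 11.8% and 13.1% of all tested genes. After VHL-r 5 fell and 2 rose, beside 9.51% and 10.3%. FOXD3, a forkhead factor of the early neural crest, had 333, 484 and 427 normalized counts in DMSO, 72.1, 92.4 and 116 after VHL-r, and 94.3, 93.5 and 78.2 after R4VPL3-1. Its log2 fold change was lower than that of SOX10, at -2.20 after R4VPL3-1 and -2.15 after VHL-r (limma adjusted p = 1.89e-09 and 4.74e-09). SLITRK6, a neuronal membrane protein, changed by -1.71 and -1.47, and TFAP2B, an AP-2 factor, by -1.13 and -1.06, in the same order. MSX1, a homeobox factor, rose from 348, 331 and 377 in DMSO to 586, 605 and 566 after VHL-r and 654, 635 and 611 after R4VPL3-1 (log2 fold change 0.74 and 0.85). PAX3, a paired-box factor that also activates MITF, was called higher after both (0.24 after VHL-r and 0.32 after R4VPL3-1). Between the compounds, SOX4 alone of this list was called, lower after R4VPL3-1 with a log2 difference of -0.45 (limma adjusted p = 0.0200), a call that did not hold when either replicate 2 or 3 of VHL-r, or replicate 1 or 2 of R4VPL3-1, was left out.

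**Figure D4:**
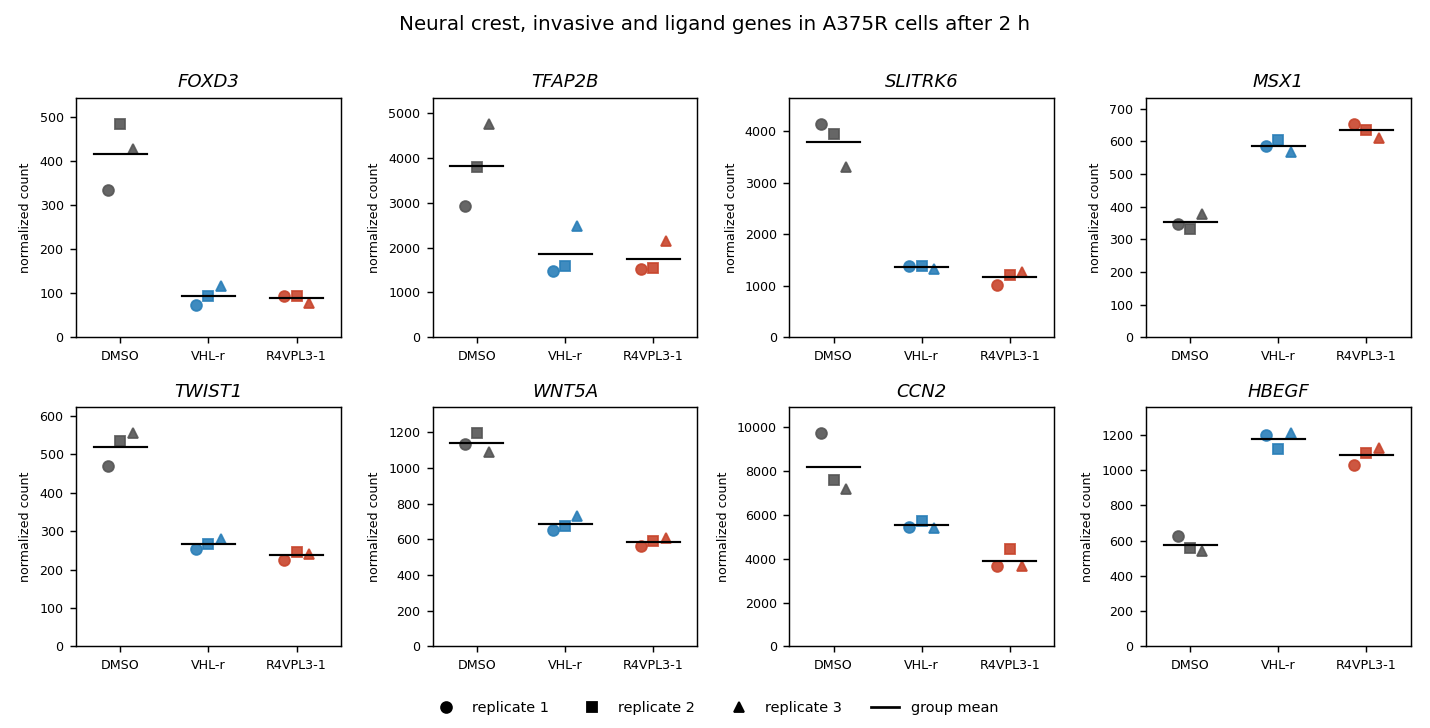
Normalized counts, on linear axes from 0, of 8 genes of the neural crest, invasive and ligand lists in each library, with symbols for the replicate number and a line for the group mean. FOXD3, TFAP2B, SLITRK6, TWIST1, WNT5A and CCN2 lay below every DMSO library after both compounds, and MSX1 and HBEGF above.

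The list of the dedifferentiated and invasive state, to which AXL belongs by background, held 25 genes, of which 24 were tested. After R4VPL3-1 13 of them fell and 2 rose, beside 11.8% and 13.1% of all tested genes. After VHL-r 15 fell and none rose, beside 9.51% and 10.3%. The medians were -0.30 and -0.24 on the log2 scale. Among its largest falls were NUAK1, a kinase related to AMPK (-1.54 and -1.38 after R4VPL3-1 and VHL-r), CXCL8, the chemokine interleukin 8 (-1.24 and -1.08), TWIST1, a factor of epithelial-mesenchymal transition (-1.13 and -0.96), and THBS1, thrombospondin 1 (-1.01 and -0.91), with CCN1 at -1.18 and CCN2 at -1.06 after R4VPL3-1. Some genes known from both ends of the melanoma state axis, SOX10 and MITF at one end and TWIST1 and WNT5A at the other, thus fell within the same 2 h. Neither end fell as a whole. At the first, DCT and PMEL were not called. Of the 15 tested genes of the pigment and MITF programme, 12 were not called after R4VPL3-1 and 12 not after VHL-r. At the second, 9 of the 24 were not called after R4VPL3-1 and 9 not after VHL-r. EGFR and 2 genes of this list were called higher after R4VPL3-1. The 2 list calls were lost without DMSO replicate 2, as was that of EGFR.

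CCN1 and CCN2, matricellular proteins whose genes are known targets of YAP and TEAD, differed between the compounds. CCN2 had 9734, 7599 and 7190 normalized counts in DMSO, 5464, 5737 and 5410 after VHL-r, and 3656, 4427 and 3650 after R4VPL3-1, with no overlap between groups. Its log2 difference between R4VPL3-1 and VHL-r was -0.51, and that of CCN1 -0.47 (limma adjusted p = 0.000875 and 0.00154). Neither was called with the robust option of limma (adjusted p = 0.150 and 0.177).

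Of 22 other receptor tyrosine kinases, 19 were tested. After R4VPL3-1 3 rose and 4 fell, beside 13.1% and 11.8% of all tested genes. After VHL-r 4 rose and 4 fell, beside 10.3% and 9.51%. FGFR1 and FGFR3, receptors of fibroblast growth factors, rose after both compounds, FGFR1 by 0.49 and 0.50 and FGFR3 by 0.71 and 0.76 on the log2 scale. FGFR2 rose by 0.98 and 1.05 but rests on 5 to 16 reads per library, and its calls were lost under most alternatives. EPHA2, an ephrin receptor, fell, with log2 fold changes of -0.44 after R4VPL3-1 and -0.27 after VHL-r. The latter was not called with the robust option of limma (adjusted p = 0.109), with DESeq2 (0.0976) or without DMSO replicate 1, where it was -0.17 (0.098). ERBB3 and MET, receptors of neuregulin and of hepatocyte growth factor, changed by -0.32 and -0.31 after R4VPL3-1 and by -0.24 and -0.25 after VHL-r, and both were called.

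The 16 ligands and regulators of EGFR, AXL and NGFR included 13 tested genes. After R4VPL3-1 2 rose and 4 fell, beside 13.1% and 11.8% of all tested genes. After VHL-r 2 rose and 3 fell, beside 10.3% and 9.51%. HBEGF, a ligand of EGFR, rose from 626, 559 and 542 normalized counts in DMSO to 1201, 1118 and 1210 after VHL-r and 1031, 1099 and 1127 after R4VPL3-1 (log2 fold change 1.03 and 0.92; limma adjusted p = 5.53e-10 and 1.70e-09). TGFA, a further EGFR ligand, fell, with log2 fold changes of -0.29 after VHL-r and -0.38 after R4VPL3-1, and so did NRG1, a ligand of ERBB3, with -0.59 and -0.42. BDNF, a neurotrophin that NGFR can bind, fell from 219, 162 and 124 to between 62.5 and 72.8 in the 6 treated libraries. The ligands of EGFR thus did not move together. No gene of the pigment, kinase or ligand lists was called between the compounds.

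As a check of the label, 6 further markers of melanoma (S100A1, S100B, MCAM, CSPG4, PRAME and MIA) were read. MIA was at 0 in every library. The summed level of the 6 was 32813 to 34672 normalized counts in DMSO, 30868 to 35242 after VHL-r and 31259 to 33811 after R4VPL3-1, so it overlapped between groups. MCAM was the only 1 of the 5 tested that was called, with a log2 fold change of -0.18 after R4VPL3-1. The call was lost without DMSO replicate 1 or R4VPL3-1 replicate 1 (limma adjusted p = 0.0664 and 0.0771), and over all alternatives 0 to 3 of the 5 were called. Of 15 markers of keratinocytes, fibroblasts, endothelial and immune cells 9 were tested, and KRT14 was called lower after R4VPL3-1 (-0.47) and LUM after VHL-r (-0.52), the latter not without VHL-r replicate 2 (-0.41, limma adjusted p = 0.0821). Their summed level was 4049 to 4674 in DMSO, 3640 to 5462 after VHL-r and 3749 to 4389 after R4VPL3-1. The largest parts were KRT10, COL1A1 and COL1A2, with means of 1810, 1065 and 705 over all libraries. COL1A1 ran from 729 to 1635 among the VHL-r libraries. Of the immune markers, PTPRC, CD3E and CD68 had at most 12 reads in a library, whereas LYZ had 79 to 154. A neighbour covers 68.5% of the exons of MIA and 81.6% of those of CD68 on the same strand, and the counting drops reads there, so low values of these genes do not show that they were absent.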

How the data were processed

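Poly(A)-selected RNA of A375R cells was sequenced by the study as strand-specific single reads of 100 bases, in 3 biological repeats per treatment. The authors deposited 1 table whose signal is a read count scaled by the size factor of its library from DESeq2 (1.36.0, per the labels) and rounded to 2 decimals. By the methods, STAR aligned them to GRCh38 and htseq-count counted them on Ensembl genes in reverse mode, which drops reads on exons shared by genes of the same strand; no merged exon of the 10 genes was so overlapped in GENCODE 44.

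Divided by the value of 1 read in the same library, 100% of the values above 0 were whole reads, with a tolerance of 0.1 read, and these gave the depth of each library. Counting error at this depth is small except for SOX9, PMEL and other low genes. limma 3.58.1 in R 4.3.3 was run with the trend option on log2(value + 1), on all 9 libraries with treatment as the single factor, which is the model of the methods. The script was tested on simulated data. Levels between genes were divided by merged exon length from GENCODE 44, in which 62639 of the 62710 genes had an entry. Promoters came from RefSeq, and 6 of the 10 genes had an entry.

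Members and lists were chosen with earlier results of these data known. All 10 genes are given; from each list up to 4 called genes with the largest absolute log2 fold change per comparison are named, and for each called member the 3 genes of the most similar pattern. PAX3, ERBB3 and MET were named after their values were seen. Alternatives were pseudocounts, filters, TMM and upper-quartile scaling, the robust option, a block, count models on the whole reads (DESeq2 1.42.0 and edgeR 4.0.16), a stricter threshold and each library left out.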

Additional observations from a re-analysis of the deposited data

How the results depend on the processing

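SOX10 and MITF stayed called lower against DMSO in both comparisons under all 22 alternatives, and so did NGFR after R4VPL3-1. The SOX10 value lay between -1.09 and -1.02 after R4VPL3-1 and between -0.86 and -0.71 after VHL-r, and that of MITF between -0.93 and -0.66 and between -0.81 and -0.60. TMM and upper-quartile scaling moved the median of all genes by at most 0.018 on the log2 scale. At an adjusted p of at most 0.01, 2494 genes and 3 members were called for R4VPL3-1 and 1885 genes for VHL-r against DMSO. With each library left out in turn, the members called numbered 3 to 5 after R4VPL3-1 and 2 to 4 after VHL-r against DMSO and 0 to 1 between the compounds, beside 2866 to 3895, 2286 to 3201 and 182 to 358 genes in all and 38 to 45, 29 to 39 and 2 to 5 list genes. Of the list genes called between the compounds, 1 was left with the robust option in place of 3, and with the replicate block 5.

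The cause of the following changes was not tested. AXL lost its call with no filter (adjusted p = 0.0554 for R4VPL3-1 and 0.0673 for VHL-r). The sign turned for differences near 0 that were not called. With each library left out, PMEL ran from -0.26 and DCT from -0.46 for R4VPL3-1 against DMSO, PMEL up to 0.28 and DCT from -0.28 for VHL-r against DMSO, and MITF from -0.22, SOX9 from -0.36, AXL from -0.035 and DCT from -0.39 between the compounds. PMEL turned to 0.11 without DMSO replicate 2, 0.070 without DMSO replicate 3, 0.11 without R4VPL3-1 replicate 3 and 0.21 with replicates 1 and 2 only (R4VPL3-1 against DMSO), and to -0.091 without DMSO replicate 1 (VHL-r against DMSO). DCT turned to 0.064 without DMSO replicate 3 and 0.017 without R4VPL3-1 replicate 1 (R4VPL3-1 against DMSO), to 0.16 without DMSO replicate 3, 0.055 without VHL-r replicate 1 and 0.012 with replicates 1 and 2 only (VHL-r against DMSO), and between the compounds to 0.052 without VHL-r replicate 3, 0.085 without R4VPL3-1 replicate 1 and 0.027 without R4VPL3-1 replicate 2. Between the compounds MITF turned to 0.018 and 0.0072 without R4VPL3-1 replicates 1 and 2, and SOX9 to 0.25 without VHL-r replicate 3, 0.14 without R4VPL3-1 replicate 3 and 0.43 with replicates 1 and 2 only. AXL turned to 0.0056 with TMM, 0.0054 with edgeR, 0.042 without VHL-r replicate 1, 0.038 without R4VPL3-1 replicate 3 and 0.026 with replicates 1 and 2 only.

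The labels do not say that samples of the same number belong together. Deviations of same-numbered libraries correlated at -0.0056 to 0.12, and those of different numbers at -0.15 to 0.098. The largest values were between VHL-r and R4VPL3-1, at 0.12 for replicate 1 and 0.11 for replicate 3. DMSO replicate 3 deviated most like VHL-r replicate 3 (0.096), whereas DMSO replicate 1 deviated most like R4VPL3-1 replicate 2 (0.098). With the replicate block 4241 genes were called for R4VPL3-1 against DMSO and 389 between the compounds, beside 3792 and 285 without it. The number of members called stayed at 5, 3 and 1. Depth limits SOX9 and PMEL most.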
